A study of Homo sapiens with 2 samples.

Results

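The RAB genes encode the largest family of small GTPases that direct membrane traffic, and their transcripts were examined in native RNA of GM12878, a human B-lymphoblastoid cell line. Members were all genes whose symbol is RAB followed by a number, with at most 1 letter and 1 further digit after it. The rule selected 53 of the 16645 annotated genes with a read and 488 of the 237608 transcript models, whatever their values. Of the 53, 52 are protein-coding genes, and RAB43P1 is a processed pseudogene that the pattern also takes in. GENCODE release 29 holds 71 genes that fit the pattern, and the other 18 were not analysed here. The series comprised 2 libraries of untreated GM12878, replicates 1 and 2 of 1 group, sequenced as native RNA on Oxford Nanopore flow cells, where each strand enters the pore from its 3′ end without amplification. The labels name no treatment, time, second cell line or batch, and do not say whether the replicates came from separate cultures. Every p-value below asks only whether these 2 libraries differ by more than the counting error of their reads. None measures the spread between replicates.

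A RAB protein is a switch. It is active on a membrane when bound to GTP and recruits effectors such as tethers, motors and sorting proteins; exchange factors load the GTP, activating proteins trigger its hydrolysis, and the chaperone GDI carries the inactive form through the cytosol. Each RAB marks its own compartment: RAB1 and RAB2 work between the endoplasmic reticulum and the Golgi, RAB5 on early endosomes, RAB7 on late endosomes and lysosomes, RAB4, RAB11 and RAB35 in recycling, RAB8 and RAB10 in transport to the plasma membrane, and RAB27 and RAB3 in regulated secretion. In B cells, antigen bound by the B cell receptor travels through early and late endosomes, where it meets MHC class II molecules.

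The coding sequences show what the family shares and how far its close paralogs differ. In the principal transcripts of GENCODE release 29 the 52 coding members encoded 194 to 333 residues, with a median of 215. A P-loop, the phosphate-binding motif of a glycine, 4 further residues, a glycine, a lysine and then a serine or threonine, was encoded in 50 of them; the exceptions were RAB40B and RAB40C. The stretches below, of 72 bases each on GRCh38, hold the P-loop codons in capitals with 24 bases on either side, and are shown for the paralogs whose levels are compared (where the start and end lie further apart, an intron falls between them).
RAB1A (chr2:65098064-65104802, minus strand): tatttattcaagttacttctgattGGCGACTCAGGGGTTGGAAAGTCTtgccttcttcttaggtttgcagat
RAB1B (chr11:66271801-66272159, plus strand): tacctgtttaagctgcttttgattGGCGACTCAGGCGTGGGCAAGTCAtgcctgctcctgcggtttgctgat
RAB5A (chr3:19950953-19951024, plus strand): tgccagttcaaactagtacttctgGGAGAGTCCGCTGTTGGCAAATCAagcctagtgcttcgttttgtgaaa
RAB5B (chr12:55987015-55987086, plus strand): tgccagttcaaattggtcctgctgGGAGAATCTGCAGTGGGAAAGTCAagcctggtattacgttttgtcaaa
RAB5C (chr17:42130374-42130445, minus strand): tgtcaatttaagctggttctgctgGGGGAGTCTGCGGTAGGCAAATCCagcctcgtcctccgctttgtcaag
RAB8A (chr19:16111920-16111991, plus strand): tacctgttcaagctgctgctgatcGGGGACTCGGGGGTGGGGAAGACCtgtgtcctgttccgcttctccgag
RAB8B (chr15:63189643-63189714, plus strand): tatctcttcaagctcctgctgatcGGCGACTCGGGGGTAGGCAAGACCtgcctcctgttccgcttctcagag
RAB11A (chr15:65869613-65877390, plus strand): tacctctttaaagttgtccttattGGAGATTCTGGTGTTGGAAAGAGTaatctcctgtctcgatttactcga
RAB11B (chr19:8390444-8399921, plus strand): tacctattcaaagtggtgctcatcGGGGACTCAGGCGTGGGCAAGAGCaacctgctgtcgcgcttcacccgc
Over the aligned coding sequence, RAB1A and RAB1B shared 463 of 606 bases (76.4%) but 93.5% of their residues, RAB11A and RAB11B 73.1% of bases and 92.1% of residues, and RAB8A and RAB8B 78.0% of bases and 82.6% of residues. Across the 16 pairs of coding members that share a RAB number, identity of the aligned coding bases ran from 66.9% to 79.7%. Members with different numbers were not aligned.

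RAB proteins are anchored by prenyl groups on cysteines at their C-terminus. The last 5 codons held at least 2 cysteine codons in 43 of the 52 members and exactly 1 in 9. The ends of 6 reading frames, with the stop codon last and cysteine codons in capitals, illustrate both kinds.
RAB1B (chr11:66276221-66276238, plus strand): ggcggtggcTGTTGCtag
RAB7A (chr3:128813405-128813422, plus strand): gaaagcTGCagtTGCtga
RAB27A (chr15:55205507-55205524, minus strand): ggggcaTGTggcTGTtga
RAB5C (chr17:42125783-42125800, minus strand): cagTGCTGCagcaactga
RAB11A (chr15:65887823-65887840, plus strand): TGCTGTcagaacatctaa
RAB8A (chr19:16132287-16132304, plus strand): cgaTGTgttcttctgtga
Here RAB1B ends in adjacent cysteines, RAB7A and RAB27A have a residue between them, RAB5C and RAB11A have further residues after them, and RAB8A has a single cysteine.

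Replicate 1 held 1360368 reads and replicate 2 held 1510998, so that 1 read was worth 0.735 and 0.662 CPM (reads per 1000000 reads of the library). As each read is a single RNA strand whatever its length, CPM compare between genes with no division by length. The markers fit the label: the 6 B cell genes given here (MS4A1, CD79A, CD79B, PAX5, CD22 and CD74) were read in both libraries and summed to 8989 and 9365 CPM. CD74 alone held 7766 and 8088 CPM of these sums. The rest ran from PAX5 (39.7 and 46.3 CPM) to CD79A (688 and 679 CPM). The T cell genes read, CD3E and CD247, summed to 4.41 and 11.3 CPM, the myeloid genes read (CSF1R, CD14 and MPO) to 2.94 and 6.62 CPM, and the epithelial genes read (CDH1, KRT18 and KRT8) to 6.62 and 20.5 CPM.

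RAB genes received 2304 reads in replicate 1 and 2499 in replicate 2. These were 0.169% (95% Wilson interval 0.163 to 0.176%) and 0.165% (0.159 to 0.172%) of all reads, a mean of 0.167% ± 0.00281 (SD, n = 2). Intervals and limits cover counting error only. Both libraries read 46 of the 53 members, replicate 1 alone read 4 and replicate 2 alone read 3. The family was uneven. Its 4 highest genes took 38.2% and 36.2% of its reads and its 10 highest took 64.8% and 61.7%. By mean level, 4 members lay above 100 CPM, 27 between 10 and 100 CPM and 22 below 10 CPM. The median member stood at 15.5 CPM, beside 8.23 CPM over all annotated genes with a read.

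**Figure D1:**
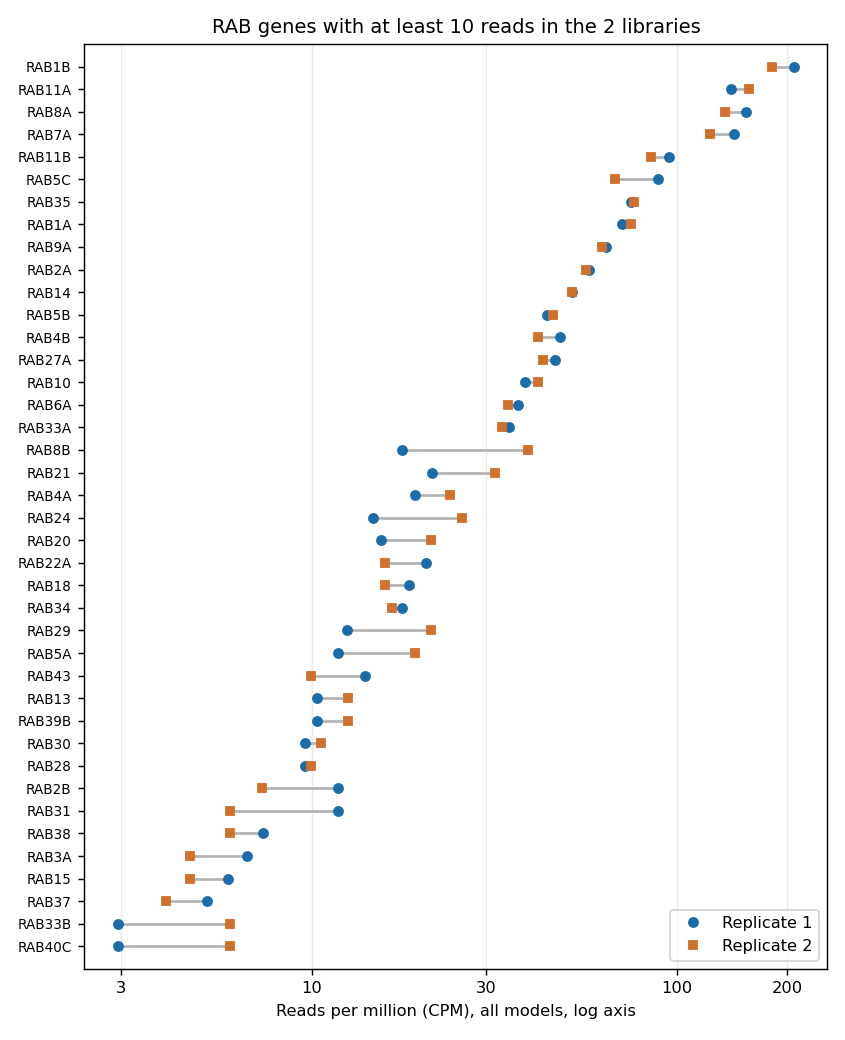
Level of each RAB gene in CPM (log axis) in replicate 1 (circles) and replicate 2 (squares), for the 40 members whose reads summed to 10 or more, ordered by mean. With all models counted, RAB1B leads at 209 and 183 CPM, and RAB8B shows the widest gap on this scale among members with a mean above 20 CPM, at 17.6 and 39.0 CPM.

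RAB1B and RAB1A, which act in transport from the endoplasmic reticulum to the Golgi, were both well read, and RAB1B was the highest member when all models were counted. RAB1B (chromosome 11, 66268533 to 66277492, plus strand, GRCh38) had 284 reads in replicate 1 (209 CPM) and 276 in replicate 2 (183 CPM), with a mean of 196 CPM ± 18.5 (SD, n = 2). RAB1A (chromosome 2, 65070696 to 65130331, minus strand) had 96 and 113 reads, a mean of 72.7 CPM ± 2.98. The libraries of the pair did not overlap, and RAB1B stood 2.96 and 2.44 times above RAB1A. A single model held much of that level: 148 and 172 reads of RAB1B (52.1% and 62.3%) belonged to ENCODEHT000462079, a genomic model of 1 exon, which overlaps the gene without matching its splicing. Without genomic models RAB1B kept 136 and 104 reads against 95 and 113 of RAB1A, so the order turned in replicate 2. Its mean was then 96.8 CPM, below RAB8A (160 CPM) and RAB11A (142 CPM), and with known models only it was 98.9 CPM, below RAB11A (158 CPM). RAB2A, of the same route, had 78 and 85 reads (56.8 CPM ± 0.766), and its paralog RAB2B had 16 and 11. All but 1 of those RAB2B reads lay in genomic models.

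RAB6A, a GTPase of Golgi transport (chromosome 11, 73675638 to 73761137, minus strand), had 50 and 52 reads, and its paralog RAB6B had 0 and 1. Of the RAB6A reads, 36 and 48 lay in the single-exon genomic model ENCODEHT000482160. Only a few reads could tell its known isoforms apart: RAB6A-201 had 4 and 1 reads and RAB6A-202 had 3 and 2. Those 2 transcripts have coding sequences of equal length that differ at 31 bases and 3 residues, all within the stretch of 114 bases below, where the bases that differ are in capitals.
RAB6A-201 (chr11:73718786-73720854, minus strand): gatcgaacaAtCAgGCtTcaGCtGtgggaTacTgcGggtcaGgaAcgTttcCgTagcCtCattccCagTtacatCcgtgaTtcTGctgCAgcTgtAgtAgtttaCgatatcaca
RAB6A-202 (chr11:73718614-73720854, minus strand): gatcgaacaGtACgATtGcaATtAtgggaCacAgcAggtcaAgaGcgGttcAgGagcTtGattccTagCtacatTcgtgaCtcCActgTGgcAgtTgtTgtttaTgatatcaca
Both transcripts were read in each library, at counts too low to compare their use.

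On the early endosome, RAB5C was the most read of the RAB5 paralogs. It had 121 reads (88.9 CPM) in replicate 1 and 102 (67.5 CPM) in replicate 2, RAB5B had 60 and 69 (44.9 CPM ± 1.10) and RAB5A had 16 and 29 (15.5 CPM ± 5.25). The 3 genes did not overlap between libraries, and the order was the same in both. RAB5C also led with known models only (53 and 28 reads) and without genomic models (92 and 59). RAB5B had 50 and 65 of its reads in genomic models, and without these it fell to 10 and 4 reads, below the 12 and 24 of RAB5A. Of the other early endosomal members, RAB21 had 29 and 48 reads, RAB22A 28 and 24, and RAB31 16 and 9. Without genomic models RAB21 had 17 and 25 reads, RAB22A 12 and 6, and RAB31 4 and 2.

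RAB7A and RAB9A, which serve late endosomes and lysosomes, were among the 9 highest members. RAB7A (chromosome 3, 128726122 to 128814796, plus strand) had 195 reads (143 CPM) and 186 (123 CPM), and RAB9A (chromosome X, 13689125 to 13710506, plus strand) had 87 and 94 (63.1 CPM ± 1.23). RAB7A overlapped in level with RAB8A, and RAB11A, at 140 and 158 CPM, overlapped with both. RAB9B, the paralog of RAB9A, had 4 reads in replicate 1 and 0 in replicate 2, where a count of 0 allows up to 1.99 CPM. RAB29, which works with the kinase LRRK2, had 17 and 32 reads, and RAB24, linked to autophagy, 20 and 39. Without genomic models RAB7A had 104 and 67 reads and RAB29 had 3 and 1.

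Of the recycling and exocytic members, RAB11A and RAB8A led with all models counted and without genomic models. RAB11A (chromosome 15, 65726054 to 65891991, plus strand) had 191 and 238 reads, a mean of 149 CPM ± 12.1, and RAB11B (chromosome 19, 8389981 to 8404434, plus strand) 129 and 128, a mean of 89.8 CPM ± 7.15. RAB11A thus stood 1.48 and 1.86 times above RAB11B, with no overlap between libraries, and the order was the same without genomic models (169 and 185 against 92 and 72 reads). RAB8A (chromosome 19, 16111629 to 16134234, plus strand) had 210 and 204 reads (145 CPM ± 13.7) and RAB8B 24 and 59. With known models only, RAB8A had 85 and 38 reads, a mean of 83.3 CPM. RAB11B then had 77 and 50 reads, a mean of 86.7 CPM. RAB35, a regulator of recycling, had 102 and 115 reads (75.5 CPM ± 0.798), RAB14 70 and 78, RAB10 52 and 63, RAB4B 65 and 63 and RAB4A 26 and 36. Without genomic models the mean of RAB35 was 29.6 CPM in place of 75.5, and that of RAB14 was 8.50 CPM in place of 51.5.

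RAB27A, which docks secretory granules and lysosomes at the plasma membrane (chromosome 15, 55202966 to 55319113, minus strand), had 63 and 65 reads, a mean of 44.7 CPM ± 2.33. The RAB3 genes of regulated exocytosis were near the limit of detection: RAB3A had 9 and 7 reads, RAB3D 5 and 4, and RAB3B 1 and 0. RAB33A stood out from its paralog, with 47 and 50 reads (33.8 CPM ± 1.03) against 4 and 9 reads of RAB33B, all of which lay in genomic models. RAB39B had 14 and 19 reads and RAB39A 2 and 0, where a count of 0 allows up to 1.99 CPM. RAB40C had 4 and 9 reads and RAB40B 3 and 2. At the lower end, RAB17 (0 and 4 reads), RAB43P1 (0 and 2), RAB6B (0 and 1), RAB19 (1 and 0) and RAB3B were read in a single library, and 9 members had at most 3 reads in each. The remaining members ran from RAB20 (21 and 32 reads) and RAB18 (25 and 24), which acts at the endoplasmic reticulum and lipid droplets, through RAB13, RAB30, RAB28, RAB38, which serves melanosome formation, RAB15 and RAB37 down to RAB23 (4 and 1), RAB36 (3 and 1), RAB12 (2 and 2) and RAB42 (2 and 2). In 8 members no read matched a known model. RAB43 (19 and 15 reads) shares sequence with RAB43P1 and a locus with the readthrough gene ISY1-RAB43 (22 and 32 reads), so the assignment of its reads is uncertain. In all, 17 members overlap another annotated gene on the same strand and 32 on the opposite strand. RAB4B overlaps the readthrough genes MIA-RAB4B (2 and 3 reads) and RAB4B-EGLN2 (2 and 2 reads). Some same-strand neighbours had more reads, namely TMEM205 of RAB3D (157 and 135), HSH2D of RAB8A (88 and 106) and MXD3 of RAB24 (23 and 31). Others had none. How such overlap affected the assignment of reads was not tested.

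**Figure D2:**
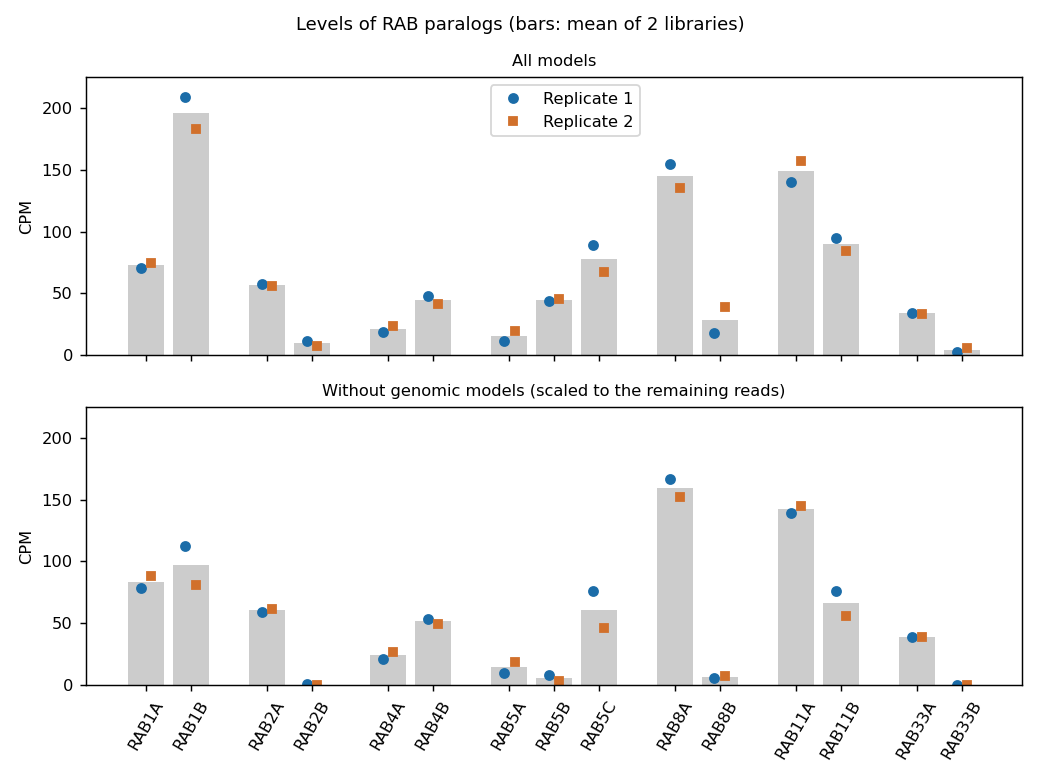
Levels of RAB paralogs in CPM with all models counted (upper panel) and without genomic models (lower panel, scaled to the remaining reads); circles are replicate 1, squares replicate 2 and bars their mean. RAB11A and RAB8A lead their paralogs in both panels, RAB5B drops below RAB5A in the lower one, and RAB1B and RAB1A overlap there.

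Whether the level of any RAB gene differed between the libraries was tested by comparing its counts with the split of all reads (exact binomial test, two-sided), with Benjamini-Hochberg adjustment over every annotated gene whose reads summed to 10 or more. Over all 10634 genes tested, 5.05% passed an adjusted p of 0.05, 2.72% being higher and 2.33% lower in replicate 2. Of the 40 members tested 1 passed, RAB8B, so the share in the family was not above the background. RAB8B (chromosome 15, 63189469 to 63267782, plus strand) had 24 reads in replicate 1 (17.6 CPM), against 59 in replicate 2 (39.0 CPM). The log2 ratio of replicate 2 over replicate 1 was 1.13 (adjusted p = 0.0225, exact binomial test). Genomic models held 17 and 50 of its reads. Without them RAB8B had 7 and 9 reads, a log2 ratio of 0.26 (adjusted p = 0.977, exact binomial test). The other 39 members lay within a log2 ratio of 1 in either direction, as did 91.5% of all genes tested. Of the members tested, 19 were higher and 21 lower in replicate 2, and their median log2 ratio was -0.03, beside 0.01 over all genes. A further 13 members had too few reads to be tested.

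With all models counted, RAB reads matched complete annotated transcripts in a smaller share than reads of other genes did. Known models match an annotated transcript, incomplete splice matches (ISM) hold only a run of its junctions, NIC and NNC models have a new combination of splice sites or a new splice site, and genomic models overlap a gene without matching its splicing. Known models took 977 of the RAB reads in replicate 1 (42.4%, 40.4 to 44.4%) and 662 in replicate 2 (26.5%, 24.8 to 28.3%), a mean of 34.4% ± 11.3 (SD, n = 2). In the other annotated genes the known share was 56.5% and 46.4%. Genomic models took 32.5% (30.6 to 34.4%) and 42.2% (40.3 to 44.2%) of RAB reads, a mean of 37.4% ± 6.86 (SD, n = 2), beside 10.9% and 15.3% in other genes. ISM models took 19.2% and 26.7%, a mean of 23.0% ± 5.34, beside 24.1% and 32.3%. NIC and NNC models together took 5.90% and 4.56%, a mean of 5.23% ± 0.948, beside 8.52% and 6.04%. The RAB genomic share in each library lay above that of other genes in both libraries, and the gap was larger than the spread between replicates. No test of this difference was made, and 2 libraries of 1 group allow none between conditions.

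**Figure D3:**
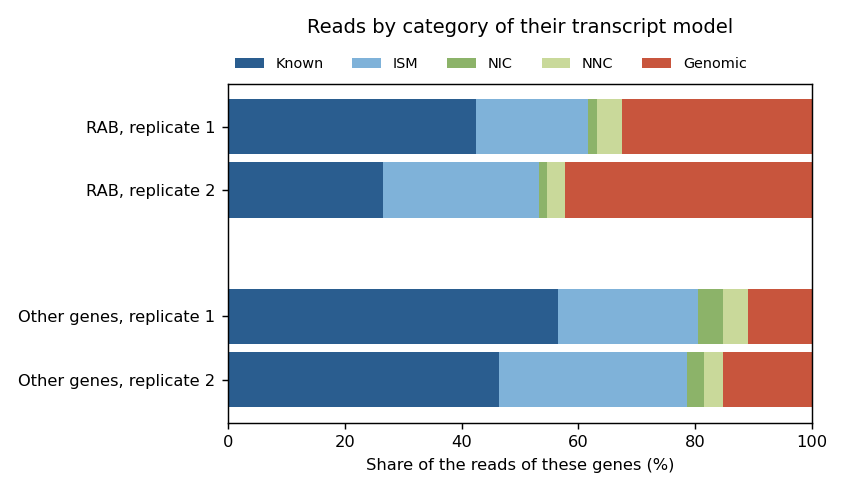
Share of reads (%) by category of transcript model in RAB genes and in the other annotated genes, 1 bar per library. Genomic models fill 32.5% and 42.2% of the RAB bars against 10.9% and 15.3% of the others, and the known part is smaller in replicate 2 in both.

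Nearly all genomic reads of RAB genes lay in models of 1 exon (748 of 749 and 1054 of 1055). The same held for other genes (145696 of 146558 and 226938 of 227981). Together, ISM and genomic models of 1 exon made up 41.2% of RAB reads in replicate 1 and 55.0% in replicate 2, beside 14.5% and 20.8% in other genes. Known models of 1 exon, which held 3 reads of RAB40B and 2 of RAB43P1 in all, are not in these shares. Which category such single-exon reads received varied between members. In RAB1A, RAB8A, RAB9A and RAB5A they were mostly called ISM, with 34 and 52 reads in ENCODEHT000355637 of RAB1A and 86 and 129 in ENCODEHT000392515 of RAB8A. In RAB1B, RAB7A, RAB14, RAB5B, RAB6A and RAB35 they were mostly called genomic, with 58 and 64 as well as 33 and 54 reads in the pair of RAB7A models ENCODEHT000478919 and ENCODEHT000478992, 52 and 67 in ENCODEHT000588222 of RAB14, and 51 and 91 in ENCODEHT000683978 of RAB35. In RAB1A, RAB5A and RAB33A the listed length of this ISM model (1836, 1468 and 586 bases) equalled that of the annotated last exon. It was shorter than the last exon in RAB8A (1344 against 2023 bases) and RAB9A (1002 against 1786 bases). The single-exon ISM models of RAB2A, RAB10, RAB11A, RAB13 and RAB21 were shorter too. The listed length of a genomic model is not a read length; a RAB28 model with 5 and 6 reads is listed at 2 bases.

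The principal transcripts annotated for RAB genes have long last exons, and the share of reads in single-exon ISM or genomic models was higher where these exons were longer. Whether the RNA read ended where the annotation does was not tested. The last exon of the principal transcript had a median of 2089 bases in the 25 members with at least 20 reads in each library, beside 1069 bases in all 6015 coding genes of 2 or more exons with such reads. The median single-exon share of these members was 40.4% in replicate 1 and 54.2% in replicate 2, beside 19.6% and 33.3% over all those genes. Within classes of last exon length the members lay close to the other genes. With a last exon of 2000 bases or more, the 14 members had medians of 53.5% and 71.3%, beside 52.4% and 68.2% over 1716 genes. From 1000 to under 2000 bases, 6 members had 41.6% and 52.7%, beside 34.3% and 52.6% over 1421 genes. Below 1000 bases, only 5 members remained. Spearman's rho between last exon length and single-exon share was 0.65 and 0.59 over the 25 members and 0.64 and 0.63 over all 6015 genes. These coefficients are across genes, which share their libraries and are not replicates.

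The extremes show the range. RAB4B, with a last exon of 356 bases, had 1.54% and 4.76% of its reads in single-exon models, and RAB33A, with 586 bases, had 10.6% and 14.0%. RAB5B, with 4587 bases, had 83.3% and 94.2%, RAB14, with 3437 bases, 81.4% and 89.7%, and RAB8B, with 4256 bases, 70.8% and 84.7%. RAB11A did not follow this order. Its annotated last exon is 4291 bases long, but only 13.6% and 27.3% of its reads were in single-exon models. Of the 1716 genes with a last exon of 2000 bases or more, 15.3% had a lower mean share. The most read spliced ISM models of RAB11A, ENCODEHT000322487 of 4 exons and ENCODEHT000322498 of 3, were listed at 694 and 2025 bases in all, shorter than that exon. This was not particular to RAB11A. Spliced ISM models of RAB14 (2672 and 2726 bases) and RAB21 (1270 bases) were also listed shorter than the last exon, with high single-exon shares. Why the share of RAB11A was low was not tested. RAB2A (2954 bases, 20.5% and 28.2%) and RAB4A (2089 bases, 15.4% and 11.1%) lay low as well.

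**Figure D4:**
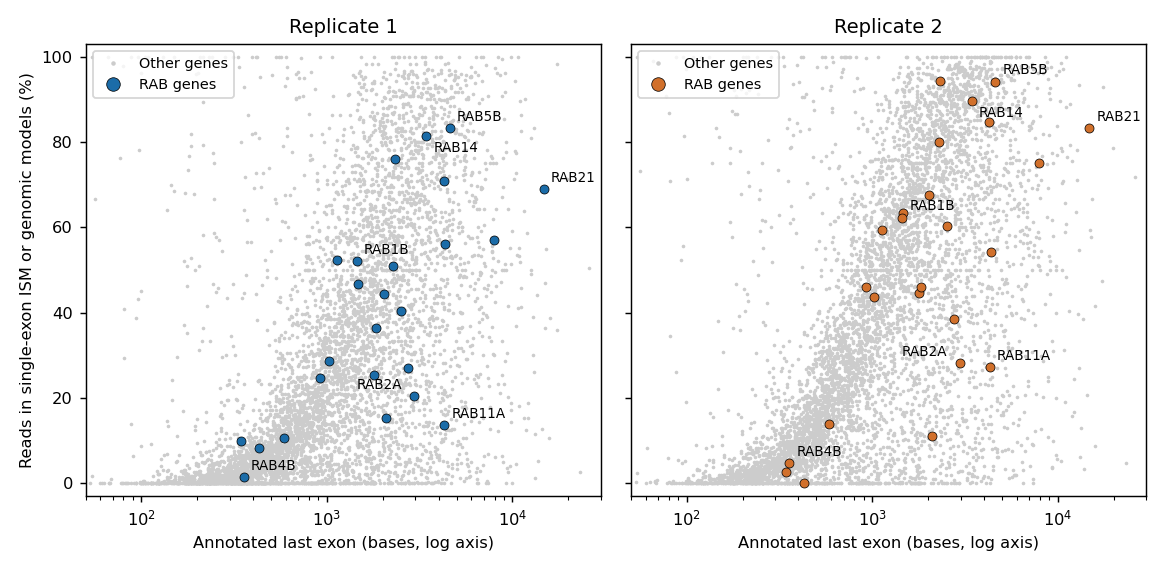
Share of reads in single-exon ISM or genomic models (%) against the length of the annotated last exon (bases, log axis) for 6015 coding genes, 1 panel per library; RAB genes are coloured and the others grey. The RAB genes follow the rise of the other genes, with RAB5B and RAB14 high and RAB11A low for their length.

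In RAB11A, RAB2A and RAB1B the spliced reads lay mainly in models with the full number of exons. RAB11A-201 has 5 exons, and 144 and 114 reads of the gene lay in models of 5 exons, 14 and 30 in models of 4, 4 and 26 in models of 3, and 2 and 3 in models of 2. In RAB2A, 51 and 35 reads lay in models of the full 8 exons and no class from 2 to 7 exons held more than 6. RAB1B had 93 and 59 reads at the full 6 exons, against 148 and 172 at 1 exon. Not every member did so. RAB5C had 4 and 1 reads at the 7 exons of its principal transcript, but 55 and 29 at 6, the exon number of RAB5C-201. RAB5B had 6 and 0 reads at its full 6 exons. Suffix ISM models, which keep the 3′ end, held 227 and 329 RAB reads, and prefix models, which keep the 5′ end, 10 and 17. The suffix models took 9.85% and 13.2% of RAB reads, less than the 16.5% and 22.0% in other genes. The prefix models took 0.434% and 0.680%, beside 1.40% and 1.37%.

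Whether complete matches were as frequent in both libraries was tested per gene, as the known part of known and ISM reads (Fisher's exact test, two-sided, Benjamini-Hochberg adjustment over all 4502 genes with at least 20 such reads in each library). Of all genes tested 35.5% passed, and 35.3% passed with a lower share in replicate 2. Of 14 members tested, 7 passed, all lower in replicate 2: RAB11A, RAB8A, RAB1A, RAB11B, RAB7A, RAB2A and RAB9A. RAB11A fell from 132 known and 24 ISM reads (84.6%) to 99 and 70 (58.6%), by 26.0 percentage points (adjusted p = 2.87e-06, Fisher's exact test). RAB8A fell from 85 known and 108 ISM reads (44.0%) to 38 and 147 (20.5%), by 23.5 percentage points (adjusted p = 1.39e-05, Fisher's exact test). RAB1A fell from 52.1% to 30.3%, RAB2A from 71.2% to 48.7%, RAB11B from 89.5% to 70.4%, RAB9A from 73.5% to 54.5% and RAB7A from 83.0% to 64.6%, with adjusted p-values from 0.00737 to 0.0346 in Fisher's exact test. In the 14 members the median difference was -19.0 percentage points, beside -11.6 over all genes, and 13 of them were lower in replicate 2, as were 82.7% of all genes. RAB33A, with 2 exons and a last exon of 586 bases, had 88.6% and 86.0% (adjusted p = 0.947, Fisher's exact test), and RAB10, with 61.8% and 69.2%, was the member with a higher share (adjusted p = 0.782, Fisher's exact test).

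**Figure D5:**
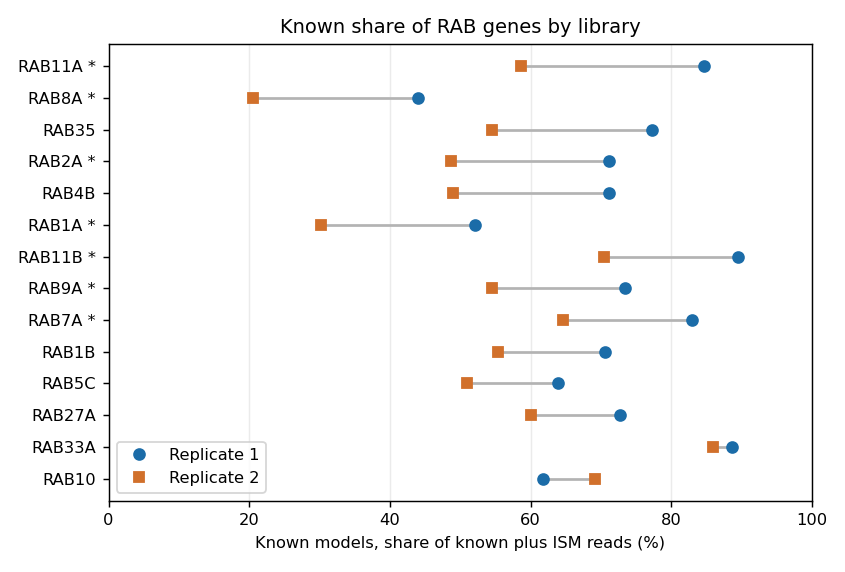
Known models as a share of known plus ISM reads (%) in replicate 1 (circles) and replicate 2 (squares) for the 14 RAB genes with at least 20 such reads in each library; an asterisk marks an adjusted p under 0.05. The shares of 13 genes are lower in replicate 2, with RAB11A dropping from 84.6% to 58.6%.

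Known reads of RAB genes were almost all of coding transcripts, 970 of 977 in replicate 1 and 640 of 662 in replicate 2; models annotated as retained introns held 7 and 20. The leading known models of the highest members were RAB11A-201 (131 and 99 reads), RAB1B-201 (88 and 56), RAB7A-201 (83 and 40), RAB8A-201 (85 and 36), RAB11B-201 (72 and 46), RAB5C-201 (52 and 27), RAB2A-201 (45 and 32) and RAB35-201 (34 and 12). Each had fewer reads in replicate 2. Among the 25 members with at least 20 reads in each library, the most read model was known in 11, genomic in 11, ISM in 2 and NNC in 1. That last gene was RAB4A, a GTPase of rapid recycling (chromosome 1, 229271062 to 229305894, plus strand). Its NNC model ENCODEHT000662113, of 8 exons and 970 bases, held 7 and 15 reads (26.9% and 41.7% of the gene), while the annotated RAB4A-201, also of 8 exons but of 2966 bases, held 0 and 1. RAB11A had an NNC model of 5 exons and 769 bases, ENCODEHT000321897, with 11 and 12 reads (5.76% and 5.04% of the gene). No other NIC or NNC model of a RAB gene reached 5 reads in each library. RAB34, by contrast, spread 24 and 25 reads over 31 models, 24 of which had a single read. Across the family, 264 of the 488 models (54.1%) rested on a single read, beside 60.7% of the models of all annotated genes, and 36.7% were read in both libraries, beside 29.9%.

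Use of known models could be tested in 1 member, because RAB9A alone had more than 1 known model with 10 or more reads. RAB9A had 46 and 37 reads in RAB9A-202 (3 exons, 2039 bases) and 15 and 11 in RAB9A-203 (2 exons, 737 bases), and no difference in their use was detectable at this depth (adjusted p = 1, Fisher's exact test). Over all genes, 25.5% of the 1175 tested passed.

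The proteins that handle RAB GTPases were looked up in 4 lists. Over all genes tested between the libraries, 5.05% passed and 15.8% had an unadjusted p under 0.05. All 10 genes of the chaperone and prenylation list were read in both libraries, led by the dissociation inhibitor GDI2, with 617 and 619 reads (432 CPM ± 31.0, SD, n = 2). GDI2 thus stood above every RAB gene in both libraries. RABAC1, a prenylated RAB acceptor, had 87.1 CPM ± 18.2 and RABGGTB, a subunit of the prenylating enzyme, 64.0 CPM ± 8.20. Of 9 tested none passed the exact binomial test, and 1 had an unadjusted p under 0.05. Of the exchange factors, 36 genes were read, led by the TRAPP subunits TRAPPC1 (242 CPM ± 21.0) and TRAPPC5 (112 CPM ± 10.3) and by DENND2D (107 CPM ± 5.02). DENND6B alone of 33 tested passed, at 69.8 and 111 CPM, with a log2 ratio of 0.67 between libraries (adjusted p = 0.00858, exact binomial test). The list of activating proteins was drawn partly by symbol, without a check of gene type, and included TBC1D27P (11 and 13 reads). Of this list, 43 genes were read, led by TBC1D10B (73.3 CPM ± 4.90), TBC1D1 (69.4 CPM ± 2.69) and TBC1D22A (54.9 CPM ± 5.55), and 3 of 31 tested passed. RABGAP1L was higher in replicate 2 (46 and 89 reads, log2 ratio 0.79), and TBC1D10C (73 and 41 reads, log2 ratio -0.98) and EVI5L (40 and 18 reads, log2 ratio -1.28) were lower. Their adjusted p-values in the exact binomial test were 0.0399, 0.0139 and 0.0318. The median gene stood at 33.9 CPM in the first list, 20.6 CPM among exchange factors, 13.2 CPM among activating proteins and 15.3 CPM among effectors. Of the effectors, 46 genes were read, led by RILPL2 (102 CPM ± 7.57), PLIN3 (93.0 CPM ± 10.8) and VPS35, the retromer subunit (66.8 CPM ± 2.93). None of the 37 effectors tested passed the exact binomial test, and 1 had an unadjusted p under 0.05.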

How the data were processed

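Raw read counts of transcript models, not normalized, were deposited for both libraries; the 2 columns hold whole numbers with different totals. The table's name shows TALON as the program that assigned reads to models. The submitters' processing notes list minimap2 and hg38, with no role or version; read filters and the annotation release are not given in the sources used here. Per the labels' protocols, depleted RNA was reverse transcribed to open its structures and entered the RNA-002 library kit. The identifier, length and exon number of all 23533 known models, 77 of them in RAB genes, matched GENCODE release 29 (GRCh38), from which positions, last exons and coding sequences were taken; the principal transcript is that of the best APPRIS class, then the longest.

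Gene counts were summed over all models and divided by the library totals of 1360368 and 1510998 reads to give CPM. Log2 ratios had 0.5 reads added to each count. With 1 group, no test of conditions was possible: exact binomial and Fisher's exact tests (scipy 1.17.1) and, for 3 or more models, 10000 permutations of the reads compared the 2 libraries, each with Benjamini-Hochberg adjustment over all genes tested (statsmodels 0.14.6). Minimum counts were 10 reads per gene, 20 known plus ISM reads per library, and, for model use, 10 reads per model and 20 known reads per library. TMM (edgeR 4.0.16) and DESeq2 1.42.0 size factors were alternatives of scale, and other models, minima and weights were tried too. Coding sequences were aligned with Biopython 1.88. The scripts were tested on simulated data.

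The members and gene lists were chosen with earlier results of these data known. Named are the 12 highest members, paralogs with a read, members past a test, leading models, NIC or NNC models with 5 reads in each library, and the 3 highest and any called regulators per list; other members were named after their values were seen. Markers of neurons and erythroid cells and some list genes were not analysed here, and 1 B cell marker is not reported here.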

Additional observations from a re-analysis of the deposited data

How the results depend on the processing

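No paired analysis was possible because both libraries belong to 1 group. Without either replicate, each share is that of the remaining library, as printed in the report, and no test remains. RAB8B remained the only member to differ between libraries under TMM and DESeq2 scaling and with minima of 20 or 1 reads. With known models only, 3 members passed (RAB35, RAB7A and RAB8A, all lower in replicate 2) of 26 tested, beside 1042 of all 5528 genes, whose median log2 ratio was -0.26. Without genomic models 3 of 33 passed (RAB35, RAB5C and RAB7A, all lower), beside 723 of 8758 genes. Set against all other reads of the gene, the known share differed in 11 of 25 members in place of 7 of 14, beside 27.1% in place of 35.5% of all genes, and RAB2A no longer passed (adjusted p = 0.119, Fisher's exact test). The count also moved with the minimum of known plus ISM reads in each library. With at least 50, 9 of 10 members passed, beside 52.6% of all genes. With at least 10, 7 of 22 members passed, beside 25.9% of all genes. With ISM, NIC and NNC models included, model use differed in 6 of 13 members in place of 0 of 1, beside 45.8% of all genes. The family took 0.112% of the reads of known models and 0.121% without genomic models. Among models of 2 or more exons, known models took 65.4% of RAB reads, NIC and NNC models 10.1% and genomic models 0.0815%. Without genomic models, known models took 54.3% of RAB reads, ISM models 37.3% and NIC and NNC models 8.32%. The median single-exon share, an alternative chosen after seeing the data, was then 4.12%. These shares were not computed for other genes. Known, ISM, and NIC or NNC reads numbered 977, 442 and 136 in RAB genes in replicate 1, beside 759463, 323208 and 114424 in other genes. In replicate 2 they numbered 662, 668 and 114, beside 692344, 481460 and 90170. With models of at least 5 reads NIC and NNC models took 1.73% of RAB reads, and with equal weight for each gene 8.16%. RAB genes with fewer than 10 reads are limited by depth.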
